A study of Mus musculus with 8 samples.

Results

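The myelin genes are 9 genes of mature oligodendrocytes, the cells that wrap axons of the brain in myelin: Mbp, Mobp, Mal, Cldn11, Cnp, Mag, Mog, Ugt8a and Opalin. They were chosen by name, and all probe sets that the platform annotation gives to them alone were read, 17 of 45101 probe sets on the array. The genes are 9 of 17097 with such a probe set and 9 of the 11345 tested. Mobp has 4 probe sets, Mbp, Cnp, Mal, Ugt8a and Opalin have 2 each, and Mag, Mog and Cldn11 have 1. One further probe set is annotated to Mbp together with Ctbp2 and was not used.

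The arrays come from striatum of male mice, 7 to 8 months old, of genotypes labelled WT and HD. The labels spell out neither HD nor the strain. Tissue was pooled by genotype, the design text naming 4 mice, so each genotype is 1 pool. Fixed lysate of each pool was split into an input and precipitates made with rabbit IgG or with an antibody to CPEB1 or to CPEB4 (RNA immunoprecipitation, RIP), and each of these 4 fractions has 1 array per pool. Values are log2 summaries made by RMA. For each gene the probe set of highest mean signal was used, and the gene entered the test if this mean exceeded 4.23, the middle value among the means of all probe sets. All 9 members passed that filter, as did 15 of their 17 probe sets.

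CPEB1 and CPEB4 bind a uridine-rich element in the 3′ end of mRNAs and control the length of their poly(A) tails and so their translation. Myelin is built far from the oligodendrocyte nucleus, and Mbp mRNA is a textbook case of a message that is carried along the cell's processes and translated at the myelin sheath. Striatum is crossed by bundles of myelinated fibres, so its lysate holds oligodendrocyte RNA beside that of neurons.

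The SD of the log2 values over the 11345 genes ran from 1.28 on the HD array of the IgG precipitate to 1.79 on the WT array of CPEB4. The array medians of all probe sets ran from 4.03 to 4.28. A comparison of fractions was tested with limma, with genotype pool as a block, so the 2 pools stand in for replicates and n is 2 pools. Errors are standard errors (SE) from the fit, and a call is a Benjamini-Hochberg adjusted p under 0.05 over all 11345 genes. In bulk tissue, fewer oligodendrocytes and less myelin RNA per cell cannot be told apart.

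Whether myelin mRNAs came down with CPEB4 was asked against IgG. By limma none of the 9 genes passed the adjusted test, where 2.37% of all genes tested did. An unadjusted limma p under 0.05 was found for 2 of 9 (Mal and Mobp), near the share of 22.9% over all genes. Mal came nearest, with 4.68-fold more signal in the CPEB4 precipitate (log2 2.23 ± 0.38 SE, n = 2 pools, limma adjusted p = 0.0564). Mobp had the largest fold, 7.13-fold (log2 2.83 ± 0.86, limma adjusted p = 0.155), but most of it came from the HD pool. The CPEB4 value was above IgG in both pools for 6 of the 9 genes (33.8% of all genes), below it in both for Opalin alone (42% of all genes), and of opposite sign in Mag and Cnp (24.2% of all genes). The CPEB4 and IgG arrays did not overlap for Mbp, Mobp, Mal and Ugt8a (higher, 4 of 9; 29.3% of all genes) and did overlap for the other 5. The members' median log2 difference was 0.38, against -0.065 over all genes. That median was 0.52 under cyclic loess, 0.28 after quantile normalization and 0.54 after median centring. These scalings moved the median of all genes to 0.033, -0.24 and 0.096. With the filter raised to the 75th percentile of the probe set means, the median of the 6 members left was 0.61. The median of all genes left was then 0.34.

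**Figure D1:**
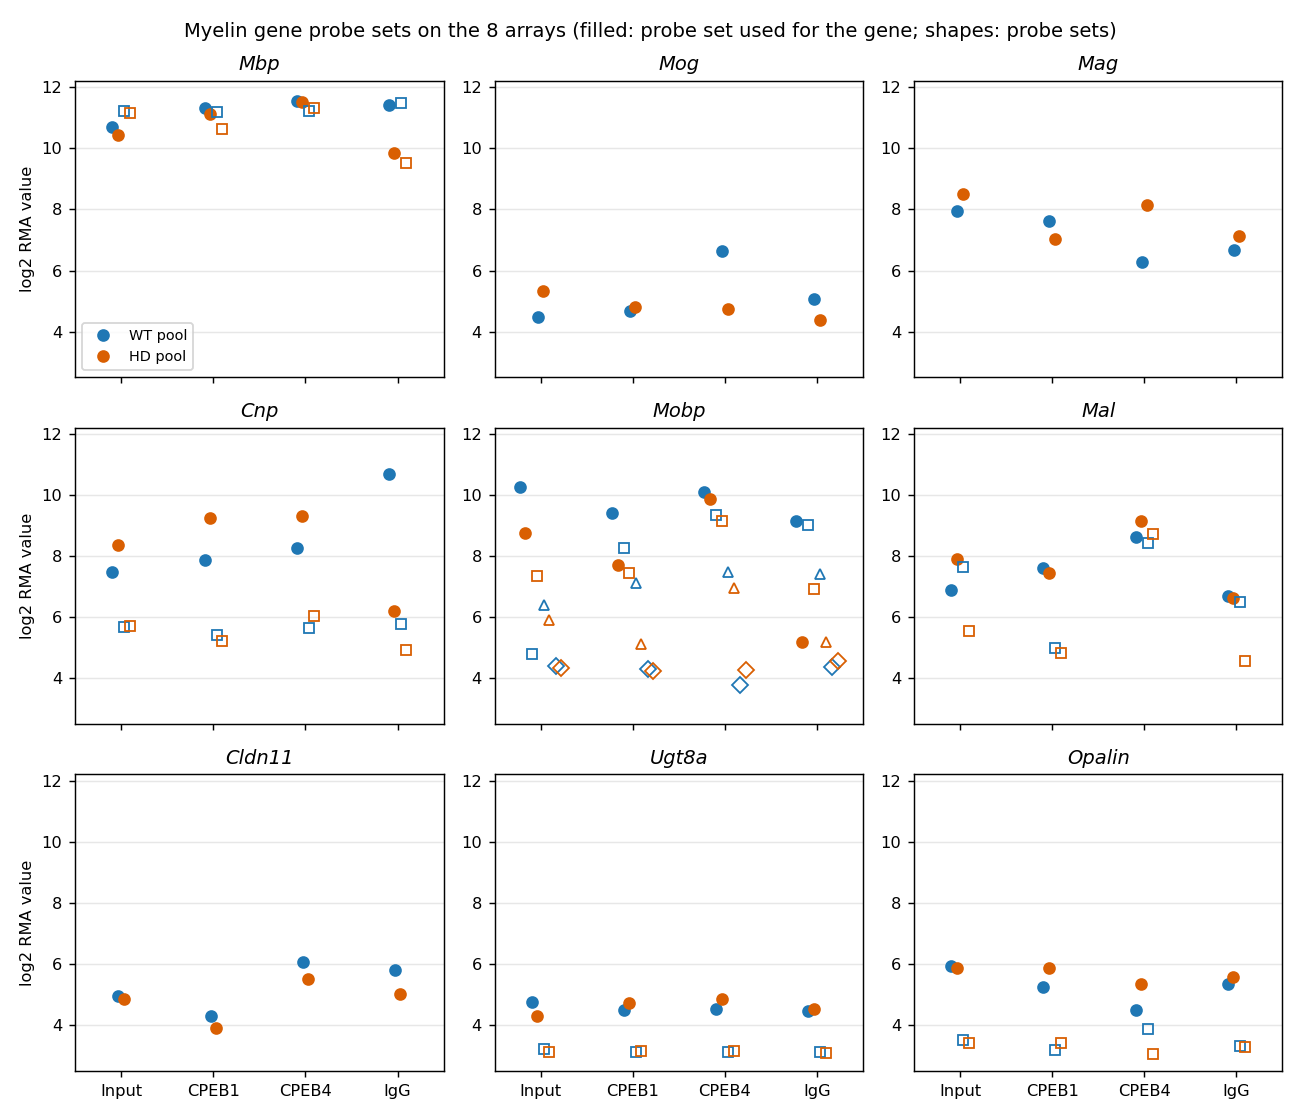
Log2 RMA values (vertical axes) of the 17 probe sets of the 9 myelin genes in the 4 fractions (horizontal axes); blue points are the WT pool, orange the HD pool, each 1 array, shapes are the probe sets of a gene and filled points the probe set used for it. Mal lies highest on the 2 CPEB4 arrays with both probe sets, and Cnp and Mobp drop on the HD array of the IgG precipitate to 6.19 and 5.19.

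Mal encodes a membrane-spanning proteolipid that sits in lipid-rich domains of compact myelin. Its main probe set (1432558_PM_a_at) read 8.64 in WT and 9.14 in HD with CPEB4. It read 6.70 and 6.62 with IgG, 7.62 and 7.44 with CPEB1, and 6.89 and 7.90 in the input. Both CPEB4 arrays thus stood above all other arrays. The second Mal probe set (1417275_PM_at) read 8.42 and 8.73 with CPEB4, 6.49 and 4.57 with IgG, 5.01 and 4.82 with CPEB1, and 7.66 and 5.56 in the input. Here too the CPEB4 arrays were the highest 2 of the 8. In a fit over all 16152 probe sets above the filter, where 3.31% were called for CPEB4 over IgG, the log2 folds were 2.23 ± 0.38 (limma adjusted p = 0.0505) and 3.05 ± 0.69 (limma adjusted p = 0.0889). When the probe sets of a gene were averaged, Mal passed (log2 2.64, limma adjusted p = 0.0382), and it passed without the pool as block (limma adjusted p = 0.0415). Over 17 alternatives it passed in those 2, with a log2 fold between 1.18 and 2.64 and an adjusted p between 0.0382 and 0.247.

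Mbp encodes the cytosolic basic protein that zips the myelin layers together. Its main probe set (1419646_PM_a_at) read 11.53 and 11.50 with CPEB4, 11.31 and 11.13 with CPEB1, 11.41 and 9.85 with IgG, and 10.68 and 10.44 in the input, WT before HD. The CPEB4 arrays were again the highest 2, but the WT IgG array lay only 0.12 below its CPEB4 partner. The second probe set (1451961_PM_a_at) read 11.23 and 11.32 with CPEB4, 11.20 and 10.62 with CPEB1, 11.48 and 9.51 with IgG, and 11.20 and 11.15 in the input. There the WT IgG array was the highest of all. The fold of Mbp over IgG was 0.89 ± 0.45 (limma adjusted p = 0.286), and it turned to -0.82 under cyclic loess.

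Mobp encodes another small basic protein of compact myelin. Its main probe set (1450088_PM_a_at) read 10.11 and 9.88 with CPEB4, 9.14 and 5.19 with IgG, 9.40 and 7.71 with CPEB1, and 10.26 and 8.75 in the input. CPEB4 stood 0.97 above IgG in WT and 4.70 above it in HD, where the IgG array was the lowest of the 8. Another 2 Mobp probe sets had the same order of pools, 0.34 in WT and 2.24 in HD (1421010_PM_at) and 0.09 and 1.76 (1436263_PM_at). The fourth (1441308_PM_at), whose mean of 4.28 was just above the filter, stood below IgG at -0.59 and -0.30. The main and the second Mobp probe set parted in the WT input, which was the highest array of the one at 10.26 and the lowest of the other at 4.80. Without the HD IgG array the fitted fold of Mobp was 1.43, and without the WT IgG array 4.24.

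Across all genes both CPEB4 arrays stood above the other 6 in 11.2%, and among the members in 2 of 9, Mbp and Mal. Of the 17 probe sets 4 showed this order, both of Mal and 1 each of Mbp and Mobp. The share over all probe sets was not counted, and probe sets of the same gene are not separate cases. Opalin alone had both inputs above the other 6 arrays (1 of 9; 8.69% of all genes), and Mal alone both IgG arrays below them (1 of 9; 6.93% of all genes). The second Mal probe set did not share the IgG order, with IgG at 6.49 and 4.57 and CPEB1 at 5.01 and 4.82. These orders were looked at after the values were seen.

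Cnp and Mag belong to the looser parts of the sheath. Cnp encodes a cyclic nucleotide phosphodiesterase of noncompact myelin, and its IgG arrays were 4.50 apart. Its main probe set (1449296_PM_a_at) read 10.69 with IgG in WT, the highest of the 8 arrays, and 6.19 with IgG in HD, the lowest. With CPEB4 it read 8.25 and 9.31, with CPEB1 7.88 and 9.24, and in the input 7.48 and 8.36. The CPEB4 difference over IgG was therefore -2.43 in WT and 3.12 in HD, a mean of 0.34 ± 1.51. Differences of at least 2-fold in both pools and in opposite directions were found in 1.39% of all genes. The other Cnp probe set (1418980_PM_a_at) had IgG values of 5.76 and 4.92 and CPEB4 differences of -0.10 and 1.12. Mag encodes an adhesion protein of the innermost layer that faces the axon. It read 6.29 and 8.16 with CPEB4, 6.68 and 7.14 with IgG, 7.62 and 7.04 with CPEB1, and 7.95 and 8.49 in the input. The WT CPEB4 array was its lowest, as it was for 2 of the 9 members and for 33.8% of all genes, the largest share of the 8 arrays. The 2 pools overlapped between CPEB4 and IgG. The small differences of Cnp and Mag over IgG were negative after quantile normalization (-0.45 and -0.60) and with cyclic loess (-0.58 and -0.28).

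Mog encodes an immunoglobulin-like protein of the outermost myelin surface. It read 6.63 with CPEB4 in WT against 4.39 to 5.33 on the other 7 arrays. With CPEB4 in HD it read 4.74, within that range, so its fold of 0.96 ± 0.67 rested on the WT array. Cldn11 encodes the claudin of the tight junctions between myelin layers. It read 6.08 and 5.50 with CPEB4, 5.80 and 5.02 with IgG, 4.95 and 4.84 in the input, and 4.28 and 3.91 with CPEB1. CPEB4 and IgG overlapped (0.38 ± 0.28, limma adjusted p = 0.41).

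Ugt8a encodes the enzyme that adds galactose to ceramide, the step that makes the main glycolipid of myelin. It read between 4.30 and 4.86 on all 8 arrays, and its second probe set between 3.09 and 3.23, a narrow span near the filter level or below it. Opalin, a transmembrane protein of oligodendrocytes, read 4.51 and 5.36 with CPEB4, 5.35 and 5.58 with IgG, 5.23 and 5.86 with CPEB1, and 5.92 and 5.86 in the input. Its CPEB4 value was below IgG in both pools, at -0.84 and -0.23 (-0.53 ± 0.32), though the groups overlapped. The second Opalin probe set, with a mean of 3.38, lay below the filter and had 0.55 and -0.24.

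**Figure D2:**
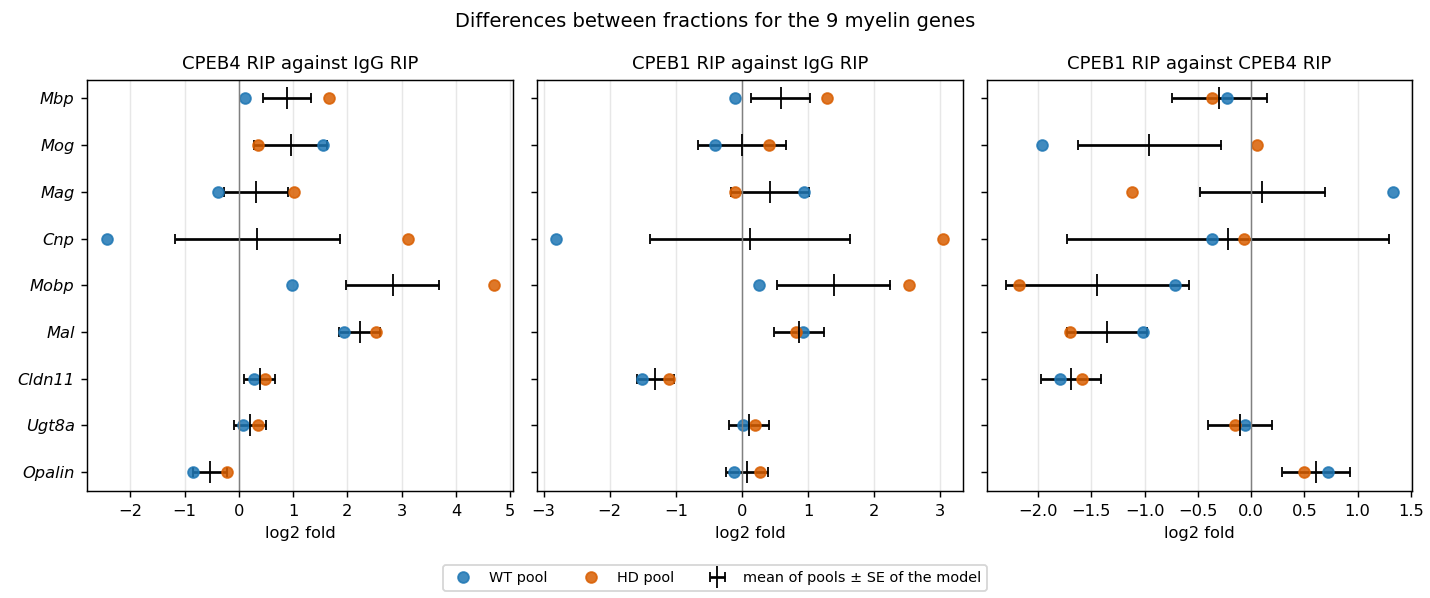
Log2 differences between fractions (horizontal axes) of the 9 myelin genes (vertical axis), in the WT pool (blue) and the HD pool (orange), with the mean of the pools and the SE of the limma model as black bars. Mal sits at 1.93 and 2.52 for CPEB4 over IgG, whereas Cnp lies at -2.43 in WT and 3.12 in HD.

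For CPEB1 the same question was put against the same IgG arrays, so the 2 comparisons share their control. By limma none of the 9 genes was called, as was 0% of all genes, and 1 of 9 had an unadjusted p under 0.05 (7.37% of all genes). That gene was Cldn11, which stood below IgG in both pools, at -1.52 and -1.10 (log2 -1.31 ± 0.28, limma adjusted p = 0.307). Both CPEB1 arrays were the lowest of the 8 for Cldn11, an order found in 1.3% of all genes and looked at after the values were seen. Its difference from IgG lay between -1.44 and -1.27 under the 3 scalings. Its values of 4.28 and 3.91 with CPEB1 lie about the filter level of 4.23.

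Mal was above IgG in both pools with CPEB1, at 0.92 and 0.82 (0.87 ± 0.38, limma adjusted p = 0.72). Its second probe set did not share this, with -1.49 in WT and 0.25 in HD. Mobp had 0.26 in WT and 2.52 in HD (1.39 ± 0.86, limma adjusted p = 0.829), and without the HD IgG array its fitted fold was -0.016. The other Mobp probe sets did not share its direction. Their mean differences were -0.11 (1421010_PM_at, with -0.75 in WT and 0.52 in HD), -0.19 (1436263_PM_at) and -0.19 (1441308_PM_at). Cnp stood at -2.81 and 3.05 against the same IgG arrays (2-fold or more in opposite directions in 1.91% of all genes). Its other probe set (1418980_PM_a_at) stood at only -0.36 and 0.31. The sign was the same in both pools for Mobp, Mal and Ugt8a (higher, 3 of 9; 35.8% of all genes) and Cldn11 (lower, 1 of 9; 21.6% of all genes), and differed in the other 5 (42.6% of all genes). The groups did not overlap for Mal (higher; 24.6% of all genes) and Cldn11 (lower; 12.5% of all genes). The median of the 9 genes was 0.12 and that of all genes 0.093; the members' median was 0.0034 under cyclic loess, -0.0015 after quantile normalization and 0.16 after median centring.

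Between the antibodies, which leaves the IgG arrays out of the difference, CPEB1 was lower than CPEB4 in both pools for 6 of the 9 genes (25% of all genes) and higher in both for Opalin (46.7% of all genes), with opposite signs in Mag and Mog (28.3% of all genes). By limma none was called, where 0.141% of all genes were, and 2 of 9 had an unadjusted p under 0.05 (15.3% of all genes), Cldn11 and Mal. Cldn11 was 3.23-fold lower with CPEB1 (log2 -1.69 ± 0.28, limma adjusted p = 0.0996), with -1.80 in WT and -1.59 in HD. Mal was 2.56-fold lower (log2 -1.36 ± 0.38, limma adjusted p = 0.239), with -1.02 and -1.70, and its second probe set was 12.7-fold lower (log2 -3.66 ± 0.69, limma adjusted p = 0.0953 over all probe sets, of which 0.898% were called). Mobp stood at -0.71 and -2.18, and 2 more of its probe sets at -1.09 and -1.72 and at -0.38 and -1.84. On the last of these (1436263_PM_at) the CPEB1 and CPEB4 arrays overlapped. The fourth Mobp probe set (1441308_PM_at) did not share the direction, with 0.52 in WT and -0.0076 in HD. The groups did not overlap for Mbp, Mobp, Mal and Cldn11 (lower, 4 of 9; 18.6% of all genes) and for none in the other direction (37% of all genes). The median of the members was -0.30, while that of all genes was 0.21. Under all 3 scalings Cldn11, Mal and Mobp kept their negative sign, and Mbp (-0.30 ± 0.45) turned to 0.30 under cyclic loess.

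Against the input, the fraction that was not precipitated, CPEB4 had a median of 0.79 over the 9 genes and -0.15 over all genes. By limma none was called (1.36% of all genes), and 3 had an unadjusted p under 0.05 (26.2% of all genes). Mal stood 2.82-fold above input (log2 1.49 ± 0.38, limma adjusted p = 0.111) and Cldn11 1.86-fold (log2 0.89 ± 0.28, limma adjusted p = 0.144). Opalin stood 1.94-fold below input (log2 -0.96 ± 0.32, limma adjusted p = 0.154). Mbp, Mal and Cldn11 had CPEB4 arrays above both inputs (3 of 9; 25.7% of all genes). Opalin had them below both inputs (1 of 9; 39.1% of all genes). The direction of Mal, Cldn11 and Opalin was the same under the 3 scalings, and Mbp (0.96) turned to -0.37 under cyclic loess.

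Mag, Cldn11 and Opalin had CPEB1 arrays below both inputs (3 of 9; 18.7% of all genes) and Mbp above them (1 of 9; 17.6% of all genes). For Opalin the difference in HD was only -0.0068. The second Mbp probe set (1451961_PM_a_at) did not share the order, with -0.0027 in WT and -0.54 in HD. The fold of Mbp over input (0.66) turned to -0.073 under cyclic loess. With CPEB1 the median against input was -0.17 (all genes -0.0086). None of the 9 was called by limma (0.0176% of all genes) and Cldn11 alone had an unadjusted p under 0.05 (1 of 9; 8.07% of all genes), at -0.80 ± 0.28. IgG against input gave a median of -0.17 (all genes -0.11), with none called by limma (0.0264% of all genes). Mobp alone had an unadjusted p under 0.05 there (1 of 9; 9.75% of all genes), at -2.34 ± 0.86, with -1.12 in WT and -3.57 in HD. Its other 3 probe sets did not share this: their mean differences were 1.89 (1421010_PM_at, with 4.21 in WT and -0.42 in HD), 0.14 (1436263_PM_at) and 0.10 (1441308_PM_at). The IgG arrays lay below both inputs for Mag, Mal and Opalin (3 of 9; 30% of all genes) and above them for Cldn11 (1 of 9; 16.6% of all genes). On the second Mal probe set IgG was below input in each pool (-1.16 in WT and -0.99 in HD), but the groups overlapped. Mag stood below both inputs in both the CPEB1 and the IgG precipitate, at -0.89 ± 0.58 and -1.31 ± 0.58.

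HD and WT were set side by side within each fraction, with 1 array each and therefore no test. In the input the members' median difference, HD minus WT, was -0.056 (all genes -0.080). Mal was 1.01 higher in HD (2-fold higher in 11.3% of all genes) and Mobp 2.84-fold lower, at 10.26 in WT and 8.75 in HD (2-fold lower in 4.43% of all genes). The second Mal probe set went the other way, from 7.66 to 5.56, and the second Mobp probe set from 4.80 to 7.34, so neither gene had 1 direction over its probe sets. The other 7 genes differed by less than 2-fold in the input.

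With CPEB4, Mag (6.29 and 8.16) and Cnp (8.25 and 9.31) were at least 2-fold higher in HD (4.55% of all genes) and Mog (6.63 and 4.74) was 3.70-fold lower (2-fold lower in 11.6%). Mbp (11.53 and 11.50) and Mobp (10.11 and 9.88) lay close together in the 2 CPEB4 arrays. With CPEB1, Cnp was 2.57-fold higher in HD (2-fold higher in 3.34% of all genes) and Mobp 3.22-fold lower (2-fold lower in 17.9%). The other Cnp probe set differed by -0.18 with CPEB1 and 0.38 with CPEB4. It was thus not higher in HD with CPEB1, and higher by less than 2-fold with CPEB4. The other Mobp probe sets differed by -0.82, -1.99 and -0.048 with CPEB1.

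**Figure D3:**
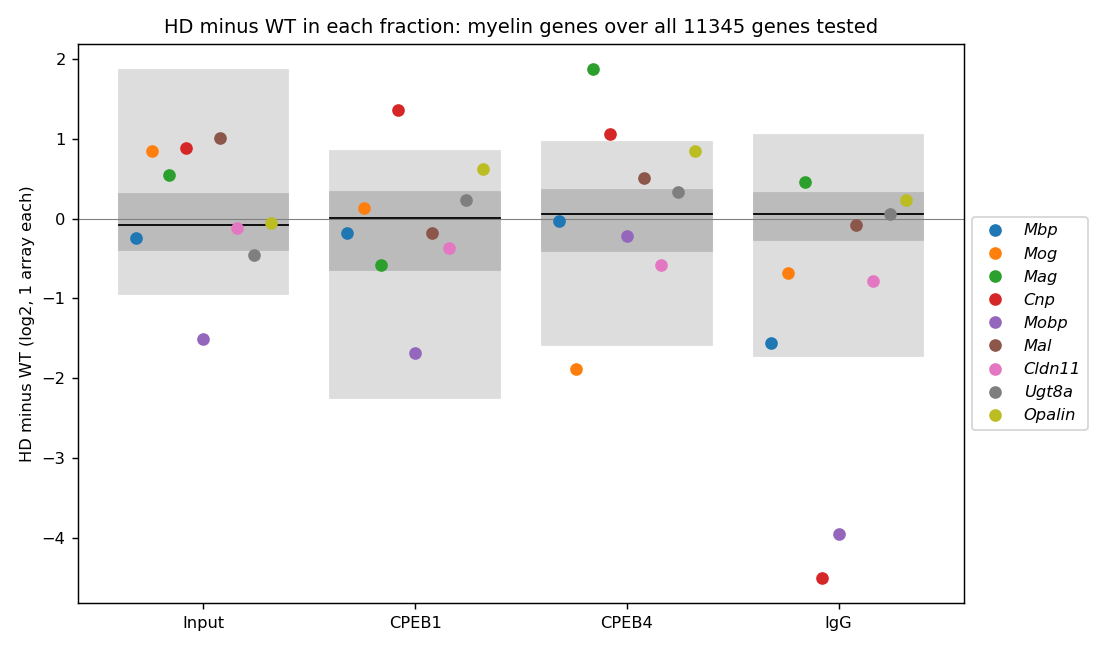
HD minus WT on the log2 scale (vertical axis) in each fraction (horizontal axis), 1 array each; coloured points are the 9 myelin genes, and grey boxes span the 5th to 95th (light) and 25th to 75th (dark) percentiles of all 11345 genes, with their median as a black line. In the IgG precipitate Cnp (-4.50) and Mobp (-3.95) lie below the light box.

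The widest differences between the pools were in the IgG precipitate, the control. There Cnp was 22.6-fold lower in HD than in WT, Mobp 15.5-fold and Mbp 2.96-fold, so 3 of 9 genes were at least 2-fold lower (10% of all genes) and 0 higher (5.32% of all genes). Mog and Cldn11 were lower by less, at -0.69 and -0.78, and Mal, Ugt8a, Opalin and Mag stood between -0.08 and 0.46. The second Mal probe set stood at -1.93, apart from the -0.08 of the main one. The second probe sets of Mbp and Cnp were lower in HD as well, at -1.97 and -0.84, and the other Mobp probe sets stood at -2.09, -2.20 and 0.19. The HD IgG array was the lowest of the 8 for 5 of the 9 genes (11.8% of all genes) and for 9 of their 17 probe sets, an order looked at after the values were seen. No share over all probe sets was counted. Under the 3 scalings Cnp stayed between -4.56 and -3.98 and Mobp between -4.08 and -3.33, while Mbp stood at -0.28 under cyclic loess.

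Marker genes of medium spiny neurons, which project out of the striatum, had lower values in HD in all 3 precipitates, with 1 array each and no test. In IgG their median of HD minus WT was -2.02, with 9 of 12 tested at least 2-fold lower, and their mean level was 9.25 in WT and 7.43 in HD. With CPEB1 the median was -1.34 (8 of 12; mean levels 9.22 and 7.58), with CPEB4 -1.19 (7 of 12; 9.65 and 8.39), and in the input -0.11 (2 of 12; 8.03 and 7.91). Over all genes 10% were at least 2-fold lower in HD in IgG, 17.9% with CPEB1, 11.6% with CPEB4 and 4.43% in the input. The medians of all genes were 0.052, 0.0037, 0.063 and -0.080 in that order. Of astrocyte markers 3 of 9 were at least 2-fold lower in HD in IgG (median -0.54) and 4 of 9 with CPEB1 (median -0.92). Of 30 other oligodendrocyte genes tested 8 were in IgG (median -0.083) and 5 with CPEB1 (median -0.13). The 5 of 30 were near the share of all genes. The part of these marker lists in the myelin result was not tested.

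The 9 genes did not follow 1 pattern over the arrays. Over the 36 pairs of genes Pearson's r across the 8 arrays ran from -0.73 to 0.72 with a median of 0.22, a description of arrays that share their pools and fractions. Each gene was also set against the mean of the other 8, on values centred by gene. Mbp (r = 0.75), Mobp (0.72) and Mal (0.55) followed the others most closely, then Cnp (0.45), Mog (0.34), Cldn11 (0.29) and Ugt8a (0.19). Mag (-0.07) and Opalin (-0.45) did not. Probe sets of 1 gene had r = 0.76 for Mbp, 0.61 for Mal, 0.60 for Cnp and -0.37 for Opalin, and between -0.55 and 0.77 for Mobp.

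Outside the oligodendrocyte lists, the 6 genes nearest to the members' mean profile over the 8 arrays were Dhx8 (r = 0.93), Kctd13 (0.93), Rps21 (0.92), Pkig (0.92), Kcna2 (0.92) and Prkar1a (0.92). The r of all 11336 other genes with that profile had a median of -0.07 and a 95th percentile of 0.66. All 6 had their lowest value on the HD IgG array, such as 3.16 for Pkig against 7.83 to 10.09 elsewhere. The profile they were chosen to follow was itself lowest on the HD IgG array, so this order largely came with the choice. Dhx8 and Kcna2 stayed between 3.84 and 4.70 on all arrays, near the filter level. The mean profile itself stood at -0.98 on that array, at 0.36 and 0.57 on the CPEB4 arrays and between -0.17 and 0.22 on the other 5.

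Other genes of the lineage were taken from a list of 39 further myelin and oligodendrocyte genes, of which 30 were tested. For CPEB4 over IgG their median was 0.47, with 0 called by limma and 6 of 30 at an unadjusted p under 0.05. Over all genes the median was -0.065, 2.37% were called and 22.9% had an unadjusted p under 0.05, so the share of 6 in 30 was near that of all genes. Nkx6-2, a homeobox factor of oligodendrocytes, came nearest (log2 2.81 ± 0.47, limma adjusted p = 0.0554), at 8.99 and 9.76 with CPEB4 and 6.36 and 6.76 with IgG. Prr18 (2.57 ± 0.47), Tppp, a tubulin-binding protein of oligodendrocytes (3.12 ± 0.77), and Plekhb1 (2.41 ± 1.73) followed. These genes were named for the size of their folds and do not stand for the list. CPEB4 was above IgG in both pools for 17 of the 30 (33.8% of all genes). It was below IgG in both for 5 (42% of all genes), and the sign differed in 8 (24.2% of all genes). Of 14 lineage and precursor genes 5 were tested, with a median of 0.32, 0 called by limma and 1 at an unadjusted p under 0.05, Matn4 (2.24 ± 0.58).

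Genes of RNA-binding and transport proteins reported to act on myelin mRNA were listed too, and 14 of 15 were tested. The list was made with earlier results of these data known, so its counts and median only describe it. For CPEB4 over IgG 2 were called by limma, both higher (2.33% of all genes), and 6 of 14 had an unadjusted p under 0.05 (22.9% of all genes). Their median was 0.98 (all genes -0.065). The called genes were Hnrnpk (log2 3.99 ± 0.42, limma adjusted p = 0.0367), an RNA-binding protein, and Pum2 (3.33 ± 0.29, limma adjusted p = 0.0263), a Pumilio repressor. Hnrnpk read 8.19 in WT and 8.01 in HD with CPEB4. Its IgG values of 4.03 and 4.18 were below the filter level, so its fold was measured against a control of low signal. Qk, the quaking gene, which encodes RNA-binding proteins needed for myelination, did not pass (2.86 ± 0.52, limma adjusted p = 0.0639). It read 9.98 and 9.67 with CPEB4, 7.58 and 6.34 with IgG, 6.88 and 7.61 with CPEB1, and 7.75 and 8.15 in the input, so both CPEB4 arrays stood above the other 6. The motor gene Kif5b stood at 2.88 ± 0.58 (limma adjusted p = 0.0786). Calls for CPEB4 over IgG, those of Hnrnpk, Pum2 and Ugcg included, needed every array of the CPEB4, IgG and input fractions: over all genes limma called 264 higher and 5 lower, and 0 once any 1 of these 6 arrays was left out. After quantile normalization it called 8 higher and 1 lower.

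Enzymes of sphingolipids and galactolipids, 19 of 20 tested, had a median of 0.16 for CPEB4 over IgG, with 1 of 19 called by limma, higher (2.33% of all genes), and 2 of 19 at an unadjusted p under 0.05 (22.9% of all genes). The called gene was Ugcg (3.83 ± 0.27, limma adjusted p = 0.0259), which puts glucose on the ceramide that Ugt8a would give galactose. Ugcg read 8.24 in WT and 7.37 in HD with CPEB4, and between 3.54 and 4.36 on all other arrays. Its IgG values of 4.11 and 3.83 were below the filter level, so this fold was measured against a control of low signal. Ugt8a itself stood at 0.21 ± 0.30 (limma adjusted p = 0.66). Medians of lists for other cell types were 0.61 for medium spiny neurons, 0.59 for astrocytes, -0.28 for microglia, -0.38 for endothelial and mural cells and -0.23 for Schwann cells, the myelinating cells of peripheral nerve, with 0 called in each by limma. An unadjusted p under 0.05, which 22.9% of all genes had, was found for 3 of 12 genes of medium spiny neurons, 1 of 9 of astrocytes, 1 of 8 each of microglia and of endothelial and mural cells, and 0 of 4 of Schwann cells. The myelin median of 0.38 lay within the range of the other brain cell lists, and no difference between lists was tested.

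**Figure D4:**
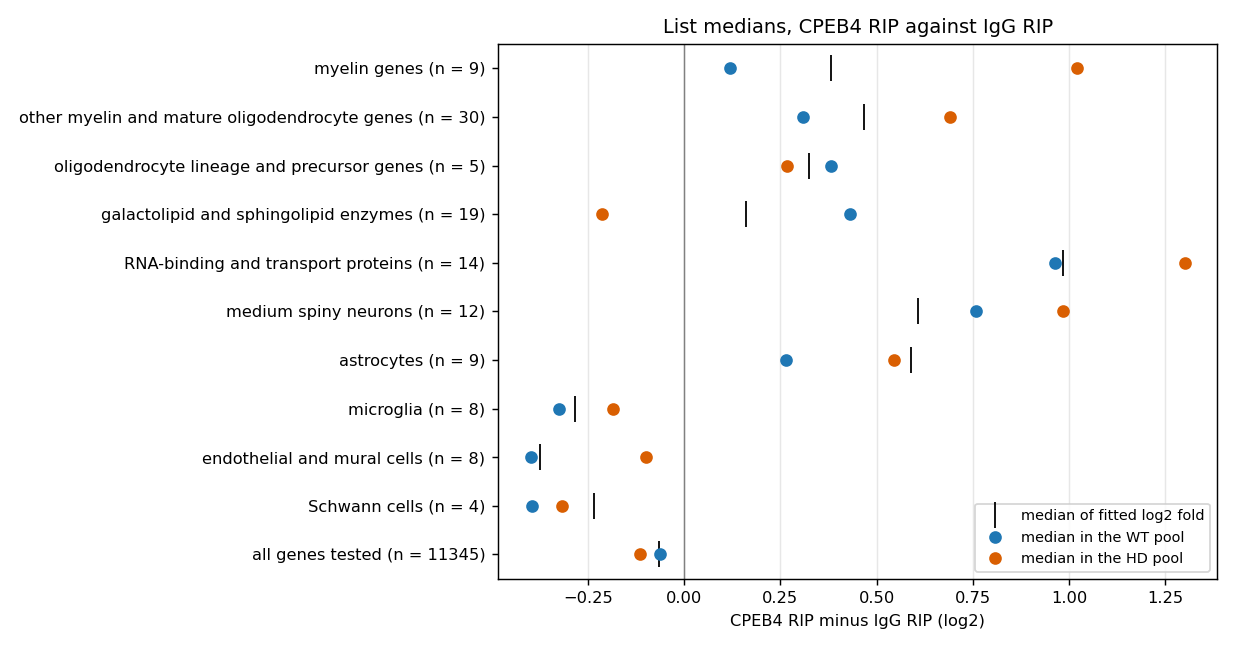
Median log2 difference between the CPEB4 and IgG precipitates (horizontal axis) of each gene list (vertical axis, with the number of genes tested), as the median of fitted folds (black bars) and within the WT pool (blue) and the HD pool (orange). The myelin genes lie at 0.12 in WT and 1.02 in HD, and all genes tested at -0.065 in the fit.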

How the data were processed

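The authors deposited log2 probe set values, with RMA named in the submitters' processing notes. No source used here gives the RMA version or says if all 8 arrays were summarised jointly. Per the labels' protocols, RNA was amplified over 27 cycles and 8 µg of cDNA was hybridised. Values were used with no further scaling, and array precision is limited by their number. Of 45101 probe sets, 28898 had 1 gene symbol, 551 several and 15652 none; 28689 symbols were matched through RefSeq (GRCm38.p6). No coordinates are given, as no source used here names the build behind the probe annotation.

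The linear model of fraction and pool was fitted by limma 3.58.1 (R 4.3.3, two-sided moderated test, 3 residual degrees of freedom and 2.29 from the prior), after a check on simulated arrays. Pools stand in for replicates, so p-values measure how unevenly fractions differ between 2 pools, and a difference by genotype counts as error. Members, lists and tests were chosen with earlier results of these data known. Named genes were the 9 members, up to 4 of each list by size for CPEB4 over IgG, and the 6 nearest by Pearson's r. Alternatives were other filters, probe set rules and scalings, no block, trended robust eBayes, fewer arrays, and folds of 1.5 and 3.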

Additional observations from a re-analysis of the deposited data

Results flagged for a closer look

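In 4 cases a member's difference between fractions had opposite directions in the pools and was at least 2-fold in each, a size set here to leave out small differences. With 1 array per pool and fraction, none of these differences between the pools was tested. For Cnp, CPEB4 over IgG was -2.43 in WT and 3.12 in HD, a gap of 5.56 on the log2 scale (2-fold in opposite directions in 1.39% of all genes). For CPEB1 over the same IgG arrays Cnp stood at -2.81 and 3.05, a gap of 5.86 (1.91% of all genes). For IgG against input Cnp stood at 3.21 and -2.16, a gap of -5.37. These 3 share the IgG arrays, which read 10.69 and 6.19. The other Cnp probe set (1418980_PM_a_at) did not show a 2-fold difference in opposite directions in any of these 3 comparisons. In the same order, WT before HD, it stood at -0.10 and 1.12, at -0.36 and 0.31, and at 0.08 and -0.79. For Mag, CPEB1 minus CPEB4 was 1.33 in WT and -1.12 in HD, a gap of -2.45. The share of all genes was not counted for IgG against input or for CPEB1 against CPEB4. How common such differences are there is therefore not known.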

How the results depend on the processing

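The count of called members was 0 in all 6 comparisons and stayed 0 under the alternatives run, with 2 exceptions for CPEB4 over IgG: it was 1 (Mal) with probe sets averaged by gene, where 8 members were tested, and 1 (Mal) with no replicate block. Leaving out each array kept all counts at 0. The members' median then ranged from 0.22 to 1.18 for CPEB4 over IgG, from -0.040 to 0.50 for CPEB1 over IgG, from -1.03 to 0.017 for CPEB1 against CPEB4, from -0.014 to 1.12 for CPEB4 against input, from -0.46 to -0.17 for CPEB1 against input and from -0.64 to -0.038 for IgG against input. The lowest for CPEB4 over IgG came without the HD IgG array and the highest without the WT CPEB4 array. With the 75th percentile filter, which left 6 members, the median was 0.61 for CPEB4 over IgG, 0.51 for CPEB1 over IgG, -0.26 for CPEB1 against CPEB4, 0.68 for CPEB4 against input and -0.58 for IgG against input. In the same order the median of all 6417 genes left by this filter was 0.34, 0.22, 0.058, 0.15 and -0.18. For CPEB4 over IgG the members' median was also 0.63 with averaged probe sets and 0.78 over all probe sets. For CPEB1 against CPEB4 it was also -0.65 with averaged probe sets, -0.54 over all probe sets, -0.38 under cyclic loess, -0.33 after quantile normalization and -0.42 after median centring; for CPEB4 against input it was 0.66 with averaged probe sets, 0.24, 0.28 and 0.97 under these 3 scalings. Of 894 member folds under an alternative, 69 had another sign, 43 of them with an array left out and 23 under a scaling; none was called. In HD against WT, members past the fold in the input were 4 at 1.5-fold and 0 at 3-fold (2 at 2-fold); 3-fold left 1 with CPEB1 (2 at 2-fold), and 1.5-fold gave 5 with IgG (3 at 2-fold). The cause of these shifts was not tested beyond the fewer genes or arrays named.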
